A study of Caenorhabditis elegans with 30 samples.

Results

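The response of wild-type Caenorhabditis elegans to ethanol at the end of a prolonged exposure was read from 10 of the 30 RNA-sequencing libraries of the series. The 5 treated libraries came from worms of N2, the wild-type laboratory strain, that spent 18 h on plates with 400 mM ethanol, and the 5 control libraries from N2 worms that spent the same time on plates with 0 mM ethanol. Each library held whole hermaphrodites, about 100 to a plate, which were moved to the sealed plates as L4 larvae, fed on bacteria at 20 °C and collected as first-day adults without any time off ethanol. The study asked which genes could take part in a withdrawal behavior that follows such an exposure, and its other 20 libraries came from N2 worms 6 h after removal and from swsn-9(ok1354) mutants, which lack a subunit of a chromatin remodeling complex, collected at once. Of the 46739 genes in the count table, 16210 were tested, those with a mean count of at least 1 over the 20 wild-type libraries.

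Worms oxidize ethanol to acetaldehyde with alcohol dehydrogenases and then to acetate with aldehyde dehydrogenases, and acetate is joined to coenzyme A to give acetyl-CoA, the building block of fatty acids and, through the glyoxylate cycle, of sugars. The intestine of the worm stores fat, digests bacteria, makes yolk and detoxifies foreign compounds, and many genes of pathogen defense are expressed in it. RNA came from whole animals, so fewer cells of a type and less RNA per cell cannot be told apart. An adult hermaphrodite also carries embryos, and their RNA is part of each library.

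The libraries at 400 mM held 12106596 to 20162436 counts and those at 0 mM 11812827 to 16456780. Ribosomal RNA genes took 0.374% to 0.882% of the counts at 400 mM and 0.503% to 6.43% at 0 mM, where replicate 5 alone was above 0.809%. Without that library 1004 genes were higher and 872 lower at 400 mM by the rule that follows. Levels below are counts per 1000000 (CPM) after TMM normalization, listed by replicate from 1 to 5, and they compare libraries, not genes. A gene is called changed when its adjusted p was under 0.05 in the quasi-likelihood test of edgeR, adjusted over all 16210 genes after Benjamini and Hochberg. By this rule 1104 genes (6.81%) were higher and 963 (5.94%) were lower at 400 mM, and the median log2 fold change of all genes tested was 0.0053. Of the called genes, 339 were higher and 331 lower by at least 2-fold, while 969 had a log2 fold change of less than 0.58 in size. Of 61 counts of 1 or 2 members in the gene lists, 49 moved by over 1.5 times under at least 1 alternative, so counts of this size are given as values on which nothing rests. For 1434 genes (8.85%), 790 higher (4.87%) and 644 lower (3.97%), the 5 libraries at 400 mM did not overlap with the 5 at 0 mM. Overlapping genes can share reads, since the strand of the counts is not stated. Called genes named below that share exon positions with a second counted gene are dhs-28, ctl-2, fat-5, pck-2, pccb-1, gst-4, gpdh-1, rhy-1, cysl-2, cct-1, hsp-90 and nhr-8, besides those where the partner is given.

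The largest rises whose levels follow were in genes with no more than 2.76 CPM in any control library. The flavin-containing monooxygenase gene fmo-2 (chromosome IV, 10682524 to 10684367 in WBcel235), whose enzyme oxidizes foreign compounds, had 23.5, 16.2, 12.6, 35.7 and 22.7 CPM at 400 mM, against 0, 0, 0.151, 0.24 and 0.309 CPM at 0 mM, a log2 fold change of 7.20 ± 0.44 (SE, edgeR adjusted p = 9.65e-11). No control library came near the lowest treated one. The gene argk-1 encodes an arginine kinase, which buffers ATP through phosphoarginine. It had 27, 28.6, 29.4, 41.6 and 41.5 CPM at 400 mM, against 0.0832, 0.401, 0.377, 2.76 and 1.85 CPM at 0 mM, a log2 fold change of 4.86 ± 0.43 (SE, edgeR adjusted p = 3.38e-08). All treated libraries lay far above the controls, whose replicates 4 and 5 were the highest of their group. The glutathione S-transferase gene gst-29 had 5.16, 5.05, 4.84, 6.03 and 5.26 CPM at 400 mM, against 0.166, 0.0668, 0, 0.54 and 0.0772 CPM at 0 mM, with a log2 fold change of 4.79 ± 0.42 (SE, edgeR adjusted p = 3.60e-08) and little spread at 400 mM. The metallothionein gene mtl-1, which binds metals, had 0.816 to 1.49 CPM at 400 mM and 0 to 0.0832 CPM at 0 mM. Its libraries held 97 counts in all at 400 mM and 4 at 0 mM, a 20.4-fold ratio with a 95% exact counting interval of 7.73 to 76.5 (edgeR adjusted p = 1.09e-05). Counting intervals cover counting error only. The infection response gene irg-2 rose to 1.23 to 12.1 CPM at 400 mM, against 0.0755 to 0.927 CPM at 0 mM, with a log2 fold change of 3.69 ± 0.56 (SE, edgeR adjusted p = 6.64e-05). It spread widely among the treated libraries, but the groups did not overlap. The other leading rises were in sodh-2, described below, and in R05H10.1, F14F9.3, E02C12.6 and T16G1.5, with log2 fold changes of 5.39, 4.57, 3.70 and 3.52 and edgeR adjusted p of 2.74e-07, 4.11e-04, 1.14e-05 and 9.57e-06.

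The largest falls were in genes of low to moderate level. The C-type lectin gene clec-70 (chromosome IV, 3932708 to 3936307), of a family of sugar-binding proteins that many infections regulate, had 0.238, 0.273, 0.109, 0.0597 and 0.146 CPM at 400 mM, against 4.33, 3.21, 3.77, 1.68 and 5.02 CPM at 0 mM, a log2 fold change of -4.44 ± 0.76 (SE, edgeR adjusted p = 2.98e-04). The gene dod-24, named for its place downstream of the transcription factor DAF-16 and regulated in many infections, had 2.94, 2.11, 1.36, 3.16 and 2.63 CPM at 400 mM, against 22.8, 10.6, 11.5, 27.1 and 29.7 CPM at 0 mM, a log2 fold change of -3.06 ± 0.30 (SE, edgeR adjusted p = 1.23e-07). The lowest control library was more than 3 times the highest treated one. The gene sym-1, for an extracellular leucine-rich repeat protein that acts in the attachment of embryonic muscle, had 0.341 to 1.16 CPM at 400 mM and 2.58 to 8.15 CPM at 0 mM, a log2 fold change of -2.92 ± 0.36 (SE, edgeR adjusted p = 4.09e-06). Its exons overlap those of a second counted gene, C44H4.4. The hedgehog-like gene wrt-10 had 0 to 0.195 CPM at 400 mM and 0.42 to 1.96 CPM at 0 mM and a log2 fold change of -3.44 ± 0.60 (SE, edgeR adjusted p = 3.53e-04). The collagen gene dpy-14, with 0.0597 to 0.75 CPM at 400 mM and 1.26 to 4.83 CPM at 0 mM, had a log2 fold change of -3.16 ± 0.66 (SE, edgeR adjusted p = 0.00193). The nuclear hormone receptor gene nhr-74 had a log2 fold change of -3.06 ± 0.31 (SE, edgeR adjusted p = 2.57e-07) at 0.146 to 0.545 CPM at 400 mM and 1.66 to 3.61 CPM at 0 mM. The others of the 10 were C32H11.4, F55G11.2, C09F9.2 and sysm-1, with log2 fold changes of -3.64, -3.59, -3.48 and -2.90 and edgeR adjusted p of 1.14e-07, 6.44e-06, 2.27e-05 and 4.25e-04. In each of these 20 leading genes the groups did not overlap, which the rule that named them required. The leading genes of each list below were also picked among called genes without overlap.

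Of 5 genes tested for the oxidation of alcohol and the activation of acetate, 3 were called, each of them higher, with a median log2 fold change of 0.17 over the 5. The rises in adh-1 and sodh-2 were several-fold and that of acs-19 was small. The alcohol dehydrogenase gene adh-1 (WBGene00010790, chromosome V, 11888248 to 11889650) had 62.7, 50.5, 48.6, 88.7 and 64 CPM at 400 mM, against 11.5, 11, 5.81, 10.3 and 14.9 CPM at 0 mM. Its log2 fold change was 2.56 ± 0.27 (SE, edgeR adjusted p = 3.22e-07), and the lowest treated library held more than 3 times the CPM of the highest control. Its neighbor sodh-2, on the other strand, had 1.9, 1.5, 2.18, 2.51 and 2.58 CPM at 400 mM, while 4 of 5 controls had no count and replicate 4 had a single one. Over all libraries there were 181 counts at 400 mM and 1 at 0 mM, and the 95% exact counting interval of their ratio had a lower end of 27-fold (edgeR adjusted p = 7.69e-07). Per kilobase of exon, adh-1 stood at 48 CPM and sodh-2 at 1.71 CPM at 400 mM. The 3′ ends of the pair overlap, and counts there may be shared. The acetyl-CoA synthetase gene acs-19, which activates acetate, had 544 ± 24.9 CPM at 400 mM and 484 ± 30.4 CPM at 0 mM (SD, n = 5 each) and a log2 fold change of 0.17 ± 0.04 (SE, edgeR adjusted p = 0.00942), with groups that overlapped. The other 2, the alcohol dehydrogenase gene adh-5 and the aldehyde dehydrogenase gene alh-1, had log2 fold changes of 0.05 (edgeR adjusted p = 0.547) and 0.11 (edgeR adjusted p = 0.0888), that of alh-1 with an adjusted p of 0.0396 when the replicate number was a block. Of 12 aldehyde dehydrogenase genes tested, 4 were higher (33.3%), or 8 with this block, and 1 was lower (8.33%). In alh-4, whose fatty aldehyde dehydrogenase removes aldehydes from lipids, the level was 152 to 169 CPM at 400 mM and 100.4 to 112 CPM at 0 mM, a log2 fold change of 0.54 (edgeR adjusted p = 5.30e-09). In alh-5 it was 5.23 to 8.53 CPM at 400 mM and 1.66 to 3.42 CPM at 0 mM, a log2 fold change of 1.31 (edgeR adjusted p = 2.21e-05). In alh-12 it was 17.9 to 21 CPM at 400 mM and 29.8 to 36.9 CPM at 0 mM, a log2 fold change of -0.74 (edgeR adjusted p = 3.33e-07).

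**Figure D1:**
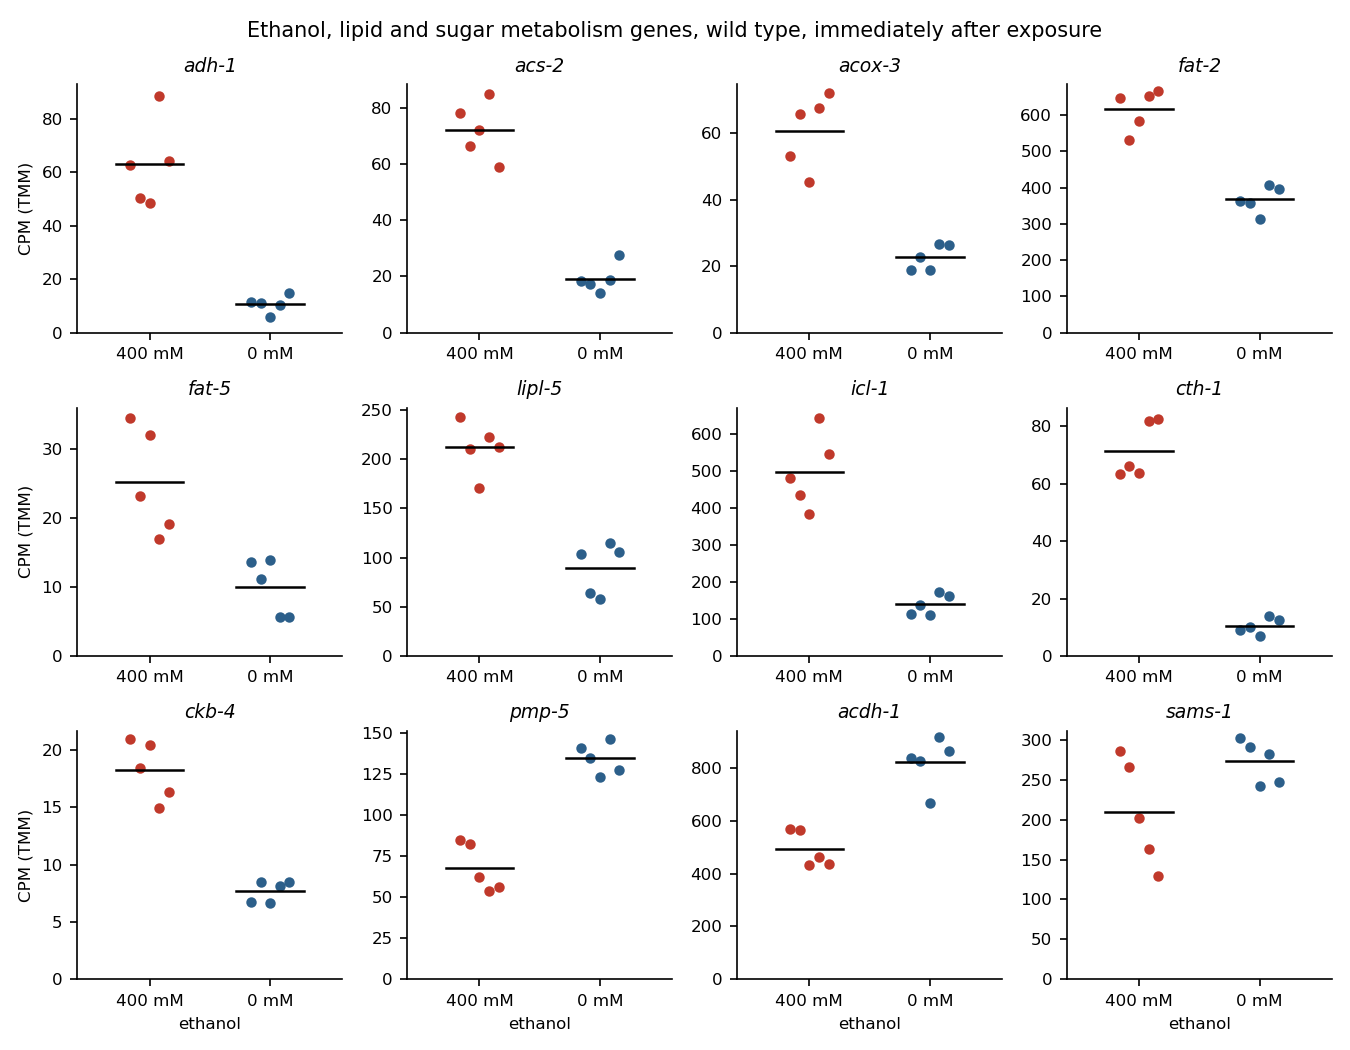
TMM-normalized CPM of 12 genes of ethanol, lipid and sugar metabolism in each wild-type library (points; 400 mM left, 0 mM right; horizontal bars are means of 5 libraries; linear axes starting at 0). In 9 panels every library at 400 mM lies above every library at 0 mM, in pmp-5 and acdh-1 every one lies below, and in sams-1 replicates 1 and 2 at 400 mM lie within the control range.

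Most genes for the enzymes that shorten very long fatty acid chains in peroxisomes, and that make the side chains of ascaroside pheromones, rose. Of 14 such genes tested, 9 were higher, 2 were lower and 3 were not called (64.3% and 14.3%, against 6.81% and 5.94% of all genes), with a median log2 fold change of 0.78. The acyl-CoA oxidase gene acox-3, for the first step of the cycle, had 53.2, 65.7, 45.3, 67.5 and 72 CPM at 400 mM, against 18.8, 22.7, 18.7, 26.6 and 26.4 CPM at 0 mM, a log2 fold change of 1.42 ± 0.12 (SE, edgeR adjusted p = 1.65e-08). The 3-hydroxyacyl-CoA dehydrogenase gene dhs-28 had 202, 221, 188, 218 and 223 CPM at 400 mM, against 93.5, 105, 93, 121 and 119 CPM at 0 mM, a log2 fold change of 0.98 ± 0.08 (SE, edgeR adjusted p = 2.25e-08). The thiolase gene daf-22, for the last step, had 114, 133, 101, 111 and 117 CPM at 400 mM, against 46.1, 62.8, 49.2, 62.5 and 57.2 CPM at 0 mM, a log2 fold change of 1.05 ± 0.10 (SE, edgeR adjusted p = 7.79e-08). In each of these 3 genes the treated libraries lay above every control, and they did so in all 9 genes called higher. The enoyl-CoA hydratase family gene ech-9 went the other way, with 1.51, 3.2, 2.5, 2.92 and 2.73 CPM at 400 mM, against 10.4, 6.22, 3.85, 11.9 and 17.3 CPM at 0 mM and a log2 fold change of -1.94 ± 0.39 (SE, edgeR adjusted p = 0.00137). Its controls ranged more than 4-fold and still did not reach down to the treated libraries. The second fall, in acox-1.2, was less secure: its groups overlapped, and its edgeR adjusted p of 0.0198 was 0.0677 without replicate 4 at 400 mM and 0.0708 without replicate 5 at 400 mM. Leaving out replicate 2 at 0 mM lost this call as well, at 0.0878.

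Among peroxins and transporters of the peroxisomal membrane, genes were called both higher and lower. The peroxin gene prx-11, for a protein of peroxisome division, had 17.5 to 23.6 CPM at 400 mM and 7.25 to 11.1 CPM at 0 mM, a log2 fold change of 1.16 ± 0.12 (SE, edgeR adjusted p = 3.17e-07). The ABC transporter gene pmp-5, of the family that carries lipids into peroxisomes, had 85, 82.2, 62.5, 53.6 and 55.9 CPM at 400 mM, against 141, 135, 123, 147 and 128 CPM at 0 mM, a log2 fold change of -0.99 ± 0.10 (SE, edgeR adjusted p = 3.01e-07). Its treated libraries were all below its controls. Of 16 genes for peroxins and these transporters, 4 were higher and 3 were lower (25% and 18.8%, against 6.81% and 5.94% of all genes). The catalase gene ctl-2, which removes the hydrogen peroxide that peroxisomal oxidation gives off, had 57.6 to 84.1 CPM at 400 mM and 35.4 to 48.6 CPM at 0 mM, a log2 fold change of 0.74 ± 0.12 (SE, edgeR adjusted p = 1.15e-04). Its tandem neighbors ctl-1 and ctl-3 had log2 fold changes of 0.92 (edgeR adjusted p = 0.00126) and 0.86 (edgeR adjusted p = 2.22e-04). The 3 are near-identical copies, so that reads may have been lost or assigned to the wrong one.

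In mitochondria the changes were smaller, apart from 1 gene. Of 19 genes of mitochondrial fatty acid oxidation, 9 were higher and 2 were lower (47.4% and 10.5%), with a median log2 fold change of 0.24. The acyl-CoA synthetase gene acs-2, known as a target of the nuclear receptor NHR-49 that fasting induces, had 78.1, 66.3, 72, 84.7 and 58.9 CPM at 400 mM, against 18.2, 17.3, 14, 18.8 and 27.5 CPM at 0 mM, a log2 fold change of 1.91 ± 0.15 (SE, edgeR adjusted p = 5.18e-09). The carnitine palmitoyltransferase gene cpt-2, for entry of fatty acids into the mitochondrion, had 175 to 191 CPM at 400 mM and 133 to 148 CPM at 0 mM and a log2 fold change of 0.41 ± 0.04 (SE, edgeR adjusted p = 1.14e-07). The hydroxyacyl-CoA dehydrogenase gene hacd-1 fell to 26.4 to 31.1 CPM at 400 mM, against 39.8 to 47.3 CPM at 0 mM, a log2 fold change of -0.59 ± 0.15 (SE, edgeR adjusted p = 0.01). Of 22 acyl-CoA synthetase genes, which prepare fatty acids for use, 10 were higher (45.5%) and 0 were lower. The number lower was also 0 with DESeq2 and at an unadjusted p under 0.05.

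Among genes that build and desaturate fatty acids, 7 of 21 were higher (33.3%, against 6.81% of all genes) and 1 was lower (4.76%, against 5.94%). The count of higher genes was 4 without replicate 1 at 400 mM or replicate 2 at 0 mM. The lower ones numbered 4 with the replicate block and 3 with DESeq2 or in a fit on 30 libraries. The gene fat-2, whose desaturase starts the synthesis of polyunsaturated fatty acids, had 647, 531, 583, 654 and 667 CPM at 400 mM, against 364, 359, 314, 406 and 396 CPM at 0 mM, a log2 fold change of 0.74 ± 0.08 (SE, edgeR adjusted p = 1.17e-06), with no overlap. The palmitate desaturase gene fat-5 had 34.6, 23.2, 32.1, 16.9 and 19.1 CPM at 400 mM, against 13.6, 11.1, 14, 5.58 and 5.64 CPM at 0 mM and a log2 fold change of 1.34 ± 0.28 (SE, edgeR adjusted p = 0.00192). Replicates 4 and 5 were its lowest libraries in both groups, and the lowest treated library was still above the highest control. The stearate desaturase gene fat-6 had 176 to 243 CPM at 400 mM and 107 to 222 CPM at 0 mM and a log2 fold change of 0.40 ± 0.15 (SE, edgeR adjusted p = 0.0841), which became an adjusted p of 0.00101 with the replicate number as a block and of 0.00717 without replicate 1 at 0 mM. Its sister gene fat-7 had 57.8 to 103 CPM at 400 mM and 36.3 to 65.9 CPM at 0 mM and a log2 fold change of 0.58 ± 0.26 (SE, edgeR adjusted p = 0.154), with an adjusted p of 0.00468 in the block fit. The acetyl-CoA carboxylase gene pod-2 had 506 to 606 CPM at 400 mM and 515 to 543 CPM at 0 mM and a log2 fold change of 0.08 (edgeR adjusted p = 0.402). The fatty acid synthase gene fasn-1 had 195 to 290.5 CPM at 400 mM and 249.8 to 292 CPM at 0 mM and a log2 fold change of -0.22 (edgeR adjusted p = 0.0603), with an adjusted p of 0.011 with the block and 0.0366 with DESeq2. Without replicate 2 at 400 mM the edgeR adjusted p of fasn-1 was 0.00338, and without replicate 1 at 0 mM 0.0414. The 1 gene called lower was the elongase gene elo-9, at a log2 fold change of -0.52 (edgeR adjusted p = 0.0162), or 0.0553 without replicate 3 at 0 mM. The best-known regulators of these genes were not called. The nuclear receptor gene nhr-49 had a log2 fold change of -0.04 (edgeR adjusted p = 0.684), the SREBP homolog gene sbp-1 0.17 (edgeR adjusted p = 0.259) and the Mediator subunit gene mdt-15 0.09 (edgeR adjusted p = 0.186).

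Genes that release and carry stored fat were called in 1 direction. Of 28 lipase and lipid-binding protein genes, 10 were higher and 0 were lower (35.7% higher, against 6.81% of all genes). The number lower was 0 as well with DESeq2 and at an unadjusted p under 0.05. The lysosomal lipase gene lipl-5, which fasting induces, had 243, 211, 171, 223 and 212 CPM at 400 mM, against 103, 63.8, 58, 115 and 105 CPM at 0 mM, a log2 fold change of 1.25 ± 0.18 (SE, edgeR adjusted p = 3.01e-05). The lipid-binding protein gene lbp-7 had 9.04, 5.66, 7.95, 10.3 and 10 CPM at 400 mM, against 3.25, 2.47, 1.96, 3.72 and 2.63 CPM at 0 mM, a log2 fold change of 1.61 ± 0.17 (SE, edgeR adjusted p = 5.47e-07). Neither gene had groups that overlapped.

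The steps that turn acetyl-CoA into sugar were higher at both ends. The gene icl-1, for the joint isocitrate lyase and malate synthase of the glyoxylate cycle, had 481, 435, 383, 645 and 547 CPM at 400 mM, against 115, 138, 110.4, 173 and 163 CPM at 0 mM. Its log2 fold change was 1.83 ± 0.16 (SE, edgeR adjusted p = 2.60e-08), with every treated library at more than 2-fold the level of the highest control. The phosphoenolpyruvate carboxykinase gene pck-2, for a step shared by gluconeogenesis and glyceroneogenesis, had 702 to 862 CPM at 400 mM and 476 to 567 CPM at 0 mM, a log2 fold change of 0.64 ± 0.07 (SE, edgeR adjusted p = 3.22e-07). Of 33 genes of the glyoxylate and tricarboxylic acid cycles and gluconeogenesis, 8 were higher (24.2%) and 1 was lower (3.03%), or 3 lower with the block. Of 19 glycolytic genes, 8 were called (42.1%), each of them higher, while 1 was lower with DESeq2 or with a minimum mean count of 10. The 8 higher included enol-1 (enolase) at 865 to 928 CPM at 400 mM and 713 to 750.0 CPM at 0 mM, with a log2 fold change of 0.30 ± 0.03 (SE, edgeR adjusted p = 4.28e-07). The glucose-6-phosphate isomerase gene gpi-1 had 301 to 327 CPM at 400 mM and 243 to 266 CPM at 0 mM, a log2 fold change of 0.30 ± 0.04 (SE, edgeR adjusted p = 2.92e-06).

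Genes of a shunt that breaks down propionate were among those that fell. When vitamin B12 is short, worms oxidize propionate by a shunt that starts with the acyl-CoA dehydrogenase ACDH-1. The gene acdh-1 had 570.0, 564, 431, 465 and 435 CPM at 400 mM, against 839.9, 829, 667, 918 and 867 CPM at 0 mM, a log2 fold change of -0.74 ± 0.09 (SE, edgeR adjusted p = 2.47e-06). The shunt genes ech-6 and hphd-1 were lower with it, with log2 fold changes of -0.51 (edgeR adjusted p = 1.52e-04) and -0.47 (edgeR adjusted p = 0.0048). The B12-dependent branch starts with propionyl-CoA carboxylase, and its gene pccb-1 was higher, with 267 to 308 CPM at 400 mM and 209 to 237 CPM at 0 mM and a log2 fold change of 0.39 ± 0.05 (SE, edgeR adjusted p = 5.83e-06). The groups did not overlap in any of these 4 genes. Over the 14 propionate and B12 genes, 4 were higher and 4 were lower (28.6% each), and 6 were not called.

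In sulfur and choline metabolism, genes were called in both directions. Among 25 genes of the methionine cycle and phosphatidylcholine synthesis, 5 were higher and 4 were lower (20% and 16%, against 6.81% and 5.94% of all genes). Their median log2 fold change was -0.01, and the 4 called lower are not named here. The genes of 2 enzymes rose. The cystathionine gamma-lyase gene cth-1, which makes cysteine, had 63.4, 66.2, 63.7, 82 and 82.7 CPM at 400 mM, against 8.9, 10, 6.94, 13.8 and 12.7 CPM at 0 mM, a log2 fold change of 2.76 ± 0.20 (SE, edgeR adjusted p = 1.47e-09). The choline kinase gene ckb-4, for the first step of making phosphatidylcholine from choline, had 20.9, 18.4, 20.4, 15 and 16.4 CPM at 400 mM, against 6.74, 8.49, 6.64, 8.09 and 8.5 CPM at 0 mM, a log2 fold change of 1.24 ± 0.11 (SE, edgeR adjusted p = 6.34e-08). In both, each treated library was above all controls. The S-adenosylmethionine synthetase gene sams-1, which supplies methyl groups for phosphatidylcholine, had 287, 266, 202, 163 and 129 CPM at 400 mM, against 303, 291, 242, 283 and 247 CPM at 0 mM, a log2 fold change of -0.39 ± 0.15 (SE, edgeR adjusted p = 0.0943), and in the block fit the adjusted p was 0.00355. Replicates 3 to 5 at 400 mM lay below every control and replicates 1 and 2 did not. The call was also made without replicate 1 at 400 mM, at 0.0201, or without replicate 2, at 0.0348.

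Of 66 cytochrome P450 genes, whose enzymes oxidize foreign compounds and lipids, 21 were higher (31.8%, against 6.81% of all genes) and 1 was lower (1.52%, against 5.94%), with a median log2 fold change of 0.67, and 60 of the 66 were above 0. The gene cyp-35C1 had 18.5, 24.7, 15.8, 14.8 and 19.1 CPM at 400 mM, against 4.83, 5.75, 5.06, 5.52 and 4.79 CPM at 0 mM, a log2 fold change of 1.83 ± 0.15 (SE, edgeR adjusted p = 1.65e-08). The gene cyp-37A1 had 21 to 30.6 CPM at 400 mM and 10.3 to 12.5 CPM at 0 mM, a log2 fold change of 1.15 ± 0.10 (SE, edgeR adjusted p = 2.00e-08), and shares exon positions with F01D5.8. The single P450 gene called lower was cyp-34A8, with 2.7, 3, 2.07, 2.74 and 2.78 CPM at 400 mM, against 8.07, 8.29, 5.13, 6.47 and 7.11 CPM at 0 mM and a log2 fold change of -1.40 ± 0.19 (SE, edgeR adjusted p = 1.09e-05). None of these 3 genes had overlapping groups.

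Among enzymes that attach sugars to foreign compounds, the UDP-glucuronosyltransferases, 19 of 62 genes were higher (30.6%) and 4 were lower (6.45%). The number higher was 12 without replicate 3 at 0 mM, and the number lower was 8 with the block or without replicate 2 at 400 mM and 2 without replicate 3 or 5 at 400 mM or replicate 4 at 0 mM. The gene ugt-37 had 6.9, 7.23, 3.65, 4.59 and 6.82 CPM at 400 mM, against 0.583, 0.869, 0.453, 0.659 and 0.232 CPM at 0 mM, a log2 fold change of 3.34 ± 0.30 (SE, edgeR adjusted p = 5.23e-08), and overlaps ugt-40 on the genome. The gene ugt-16 had 31.8, 21.1, 18.4, 29.7 and 33 CPM at 400 mM, against 5.41, 7.49, 5.13, 7.85 and 8.73 CPM at 0 mM, a log2 fold change of 1.95 ± 0.19 (SE, edgeR adjusted p = 1.43e-07). Short-chain dehydrogenases of the dhs family had 12 of 30 genes higher (40%) and 2 lower (6.67%). The gene dhs-2 (chromosome I, 5354181 to 5357029) had 24.3, 33, 25.1, 34 and 33.4 CPM at 400 mM, against 3.91, 3.28, 2.72, 3.18 and 4.4 CPM at 0 mM. Its log2 fold change of 3.10 ± 0.18 (SE, edgeR adjusted p = 3.97e-11) had the fourth smallest p of all genes tested, and the groups lay more than 5-fold apart at their nearest. Of 45 glutathione S-transferase genes, 7 were higher (15.6%), or 11 with the block, and 2 were lower (4.44%). The gene gst-5 had 15.8 to 23.7 CPM at 400 mM and 5.13 to 8.15 CPM at 0 mM, a log2 fold change of 1.61 ± 0.15 (SE, edgeR adjusted p = 7.42e-08), and shares exon positions with nos-1. The gene gst-4, a widely used reporter of the oxidative stress factor SKN-1, had 18.1 to 35.4 CPM at 400 mM and 9.43 to 18.3 CPM at 0 mM, a log2 fold change of 0.82 ± 0.19 (SE, edgeR adjusted p = 0.00399), with groups that overlapped. Of 47 ABC transporter genes, 7 were higher (14.9%) and 2 were lower (4.26%), the second count being 5 with the block or with DESeq2. The P-glycoprotein genes pgp-1 and pgp-5, whose products export drugs from cells, had log2 fold changes of 1.63 ± 0.23 (SE, edgeR adjusted p = 2.57e-05) and 1.54 ± 0.20 (SE, edgeR adjusted p = 8.41e-06).

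**Figure D2:**
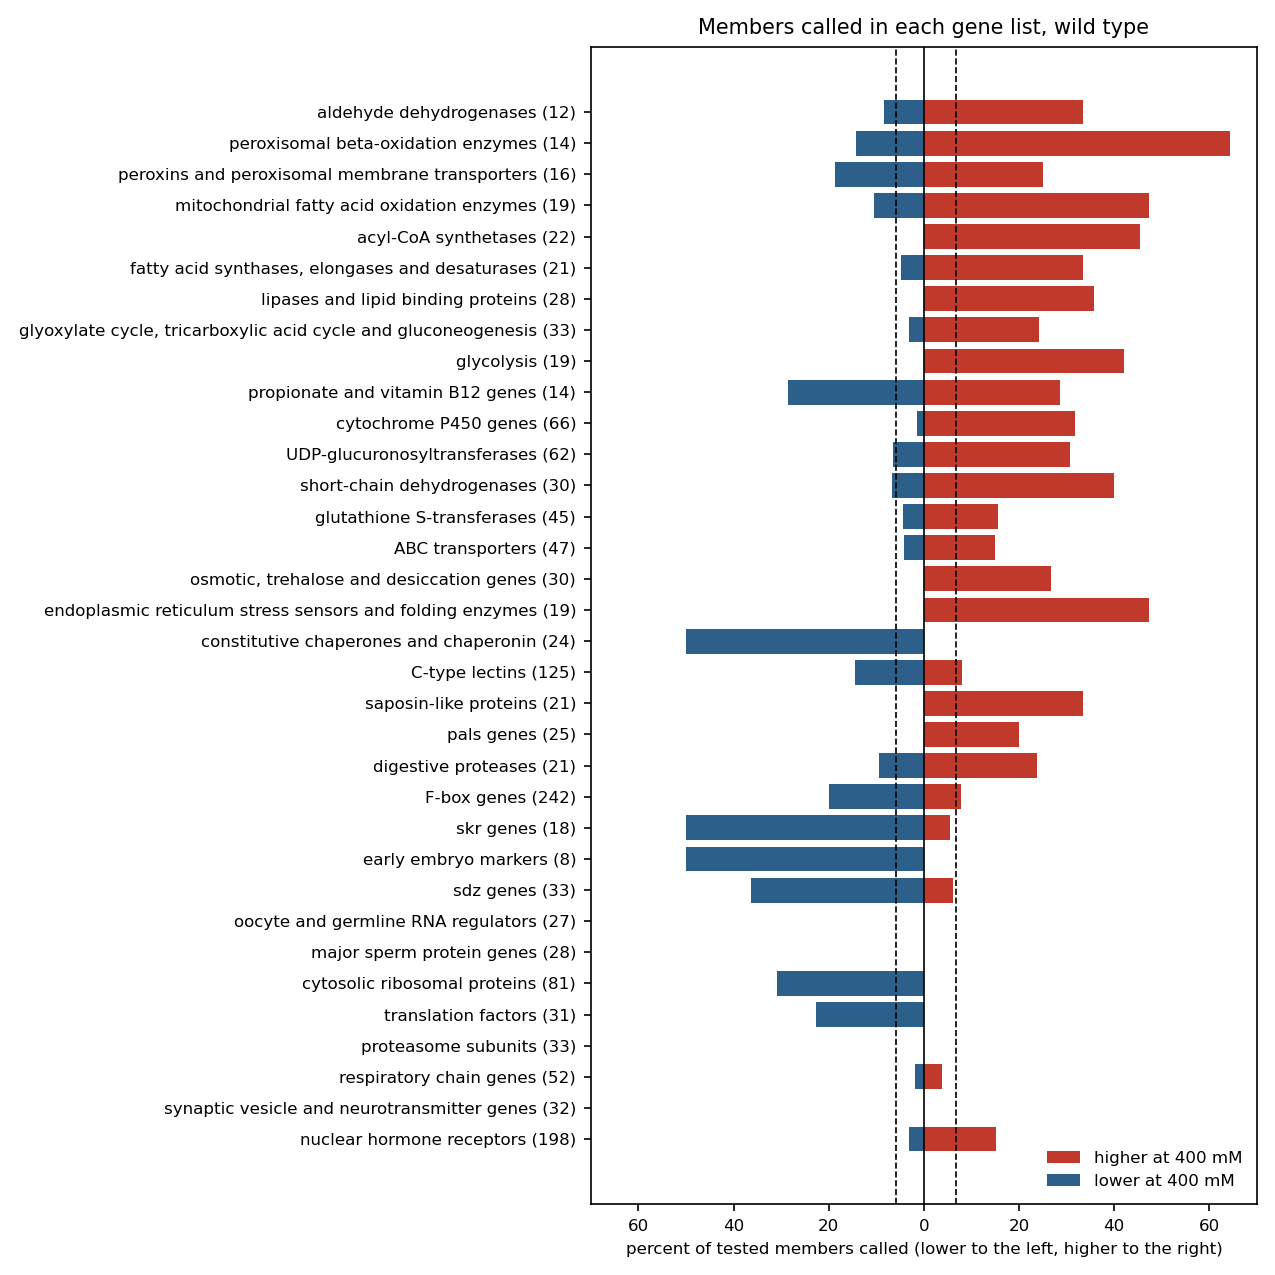
Share of tested members called higher (right) and lower (left) at 400 mM in 34 gene lists, with the number tested after each name (percent of members; edgeR adjusted p under 0.05). Dashed lines mark the shares over all 16210 genes, 6.81% higher and 5.94% lower. Peroxisomal beta-oxidation, short-chain dehydrogenases and cytochrome P450 genes reach far to the right, and the skr, early embryo marker and chaperone lists reach to the left.

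Genes of the response to water stress rose in part. Of 30 osmotic, trehalose and desiccation genes, 8 were called, each of them higher (26.7%). With the block or with DESeq2, 1 was lower. The inositol transporter gene hmit-1.1, which high salt induces, had 11.8, 14.6, 9.2, 10.4 and 10.6 CPM at 400 mM, against 1.83, 2.14, 2.94, 3.18 and 2.55 CPM at 0 mM, a log2 fold change of 2.15 ± 0.15 (SE, edgeR adjusted p = 1.47e-09). The glycerol-3-phosphate dehydrogenase gene gpdh-1, for glycerol that protects cells from high salt, had 12.7, 39.3, 14.2, 12.8 and 10.2 CPM at 400 mM, against 3.25, 6.68, 5.21, 6.17 and 3.4 CPM at 0 mM, a log2 fold change of 1.83 ± 0.32 (SE, edgeR adjusted p = 3.17e-04). Its replicate 2 at 400 mM was nearly 3-fold above the other treated libraries, and these were still above all controls. The sister gene gpdh-2 had 247 to 284 CPM at 400 mM and 160.2 to 178 CPM at 0 mM, a log2 fold change of 0.65 ± 0.05 (SE, edgeR adjusted p = 3.13e-09). In the trehalose synthase gene tps-1 the level was 25.7 to 33.3 CPM at 400 mM and 16.9 to 25.1 CPM at 0 mM, with a log2 fold change of 0.45 ± 0.11 (SE, edgeR adjusted p = 0.00559). Of 12 genes of the hydrogen sulfide and HIF-1 hypoxia pathway, 2 were called, both lower (16.7%). The gene rhy-1, for a regulator that restrains HIF-1, had 7.46, 9.07, 8.22, 8.35 and 7.6 CPM at 400 mM, against 13.3, 14, 13.6, 15.8 and 14.8 CPM at 0 mM, a log2 fold change of -0.81 ± 0.10 (SE, edgeR adjusted p = 2.65e-06). The other was cysl-2, for a sulfide-handling enzyme of the same pathway, with a log2 fold change of -0.45 (edgeR adjusted p = 5.36e-04). The gene hif-1 itself had a log2 fold change of 0.12 (edgeR adjusted p = 0.192).

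Protein folding genes of the endoplasmic reticulum and of the cytosol were called in opposite directions. In the endoplasmic reticulum, 9 of 19 genes for stress sensors and folding enzymes were called, each of them higher (47.4%). With the block 11 were higher and 1 was lower, and with DESeq2 9 were higher and 1 was lower. The gene xbp-1, for the transcription factor of the unfolded protein response, had 375, 305, 339, 374 and 359 CPM at 400 mM, against 239, 200.2, 205, 227 and 232 CPM at 0 mM, a log2 fold change of 0.67 ± 0.06 (SE, edgeR adjusted p = 2.22e-08). The ER Hsp90 gene enpl-1 had 921, 748, 883, 845 and 883 CPM at 400 mM, against 641, 552, 618, 572 and 619 CPM at 0 mM, a log2 fold change of 0.51 ± 0.05 (SE, edgeR adjusted p = 3.01e-07), and shares exon positions with spo-11. The BiP gene hsp-4, the usual reporter of this response, had 509 to 660.2 CPM at 400 mM and 450.4 to 536 CPM at 0 mM and a log2 fold change of only 0.19 ± 0.06 (SE, edgeR adjusted p = 0.0416). That call was lost with the DESeq2 size factors, at 0.0563, and on leaving out replicate 1 or 3 at 400 mM or replicate 2, 4 or 5 at 0 mM, at 0.0678 to 0.131. In the cytosol, 12 of 24 constitutive chaperone and chaperonin genes were called, each of them lower (50%), at a median log2 fold change of -0.16. The lower set held cct-1, a subunit of the chaperonin that folds actin and tubulin, at 529 to 590.0 CPM at 400 mM and 604 to 684 CPM at 0 mM and a log2 fold change of -0.18 ± 0.04 (SE, edgeR adjusted p = 0.00539). The Hsp90 gene hsp-90 had 3122 to 3764 CPM at 400 mM and 3726 to 4357 CPM at 0 mM and a log2 fold change of -0.24 ± 0.05 (SE, edgeR adjusted p = 0.00264). The count of lower chaperone genes was 8 to 13 with a library left out. Of 13 small heat shock and inducible Hsp70 genes, 2 were higher (15.4%) and 1 was lower (7.69%), or 2 lower with the block. The small heat shock protein gene sip-1, which holds most of the summed level of these genes, had 766 to 969 CPM at 400 mM and 613 to 783 CPM at 0 mM and a log2 fold change of 0.42 ± 0.07 (SE, edgeR adjusted p = 3.37e-04). The other gene called higher, hsp-12.3, had a log2 fold change of 0.85 (edgeR adjusted p = 0.0129), and the gene called lower, hsp-43, -0.26 (edgeR adjusted p = 0.0353). The call of hsp-43 was lost, at 0.0625 to 0.1, without replicate 2, 3 or 5 at 400 mM or replicate 1, 2 or 4 at 0 mM. The heat-inducible gene hsp-70 had 0.119 to 1.03 CPM at 400 mM and 0.232 to 0.749 CPM at 0 mM, and 1 treated library, replicate 3, held more than the others. Of 10 mitochondrial chaperone and protease genes, 2 were higher (20%, against 6.81% of all genes), or 4 with the block, and 1 was lower (10%, against 5.94%). The mitochondrial stress reporter gene hsp-6 had a log2 fold change of -0.03 (edgeR adjusted p = 0.857).

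**Figure D3:**
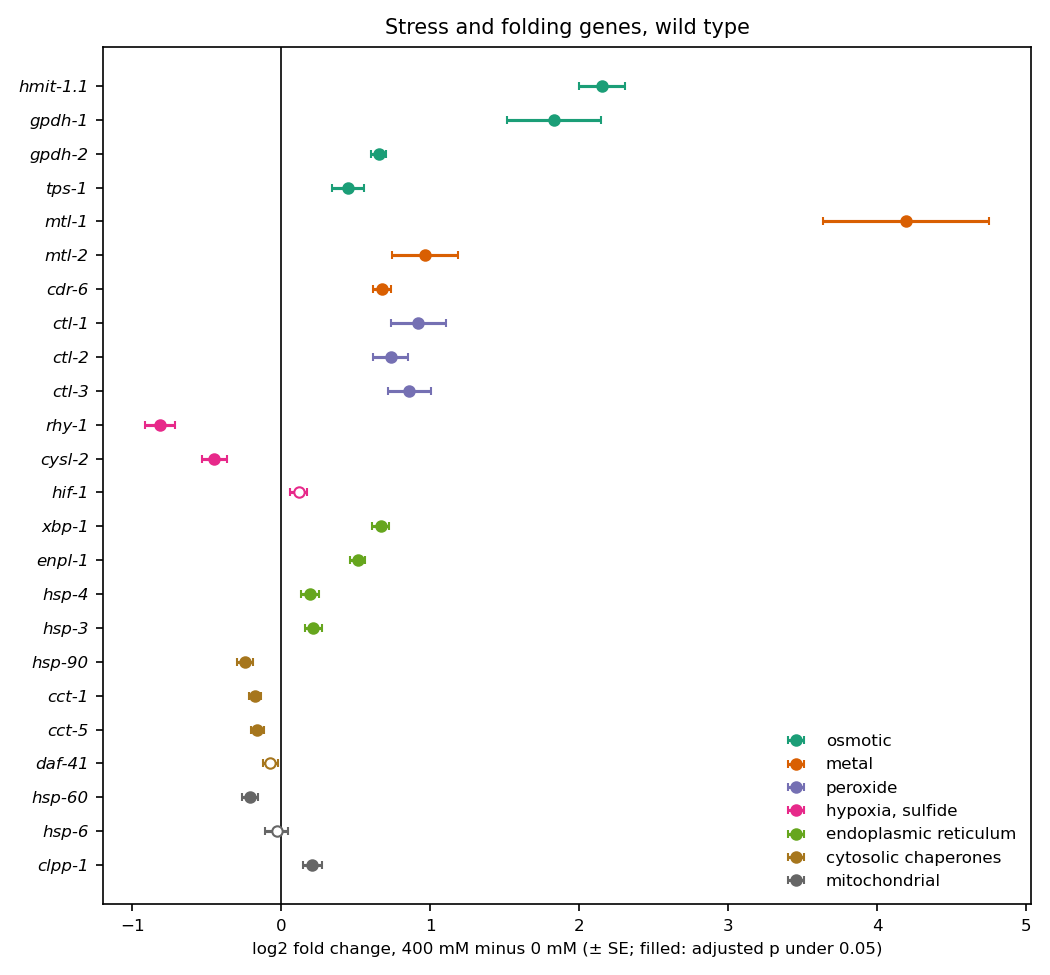
Log2 fold change (400 mM minus 0 mM, wild type) of 24 stress and folding genes with bars of 1 standard error derived from the edgeR F statistic, grouped by compartment or stress. Filled points have an adjusted p under 0.05. Osmotic, metal and endoplasmic reticulum genes lie to the right of 0, cytosolic chaperones between -0.24 and -0.07.

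Of 125 C-type lectin genes, many of which change on infection, 18 were lower (14.4%, against 5.94% of all genes) and 10 were higher (8%, near the 6.81% of all genes). Besides clec-70, the gene clec-266 fell, with 4.76, 4.16, 2.83, 3.16 and 2.83 CPM at 400 mM, against 12.2, 16.6, 19.2, 15.1 and 16.5 CPM at 0 mM and a log2 fold change of -2.18 ± 0.20 (SE, edgeR adjusted p = 5.55e-08), and it shares exon positions with kqt-1. The gene clec-190 rose, with 8.73, 11.9, 13.8, 16 and 13.8 CPM at 400 mM, against 2.66, 2.61, 3.17, 2.16 and 1.39 CPM at 0 mM and a log2 fold change of 2.42 ± 0.21 (SE, edgeR adjusted p = 2.52e-08). In neither did the groups overlap. Of 21 saposin-like protein genes, some of which kill bacteria by making pores, 7 were called, each of them higher (33.3%), while with the block 9 were higher and 1 was lower. Among them spp-8 had 27.9 to 39.4 CPM at 400 mM and 17.6 to 22.7 CPM at 0 mM, a log2 fold change of 0.85 ± 0.11 (SE, edgeR adjusted p = 6.70e-06). The bZIP transcription factor gene zip-2, which acts in surveillance of translation and infection, had 132, 121, 103, 137 and 128 CPM at 400 mM, against 67.8, 68.1, 53.4, 74.5 and 81.3 CPM at 0 mM, a log2 fold change of 0.85 ± 0.09 (SE, edgeR adjusted p = 9.28e-07), and overlaps dos-3 and linc-37. The p38 kinase gene pmk-1 had a log2 fold change of -0.08 (edgeR adjusted p = 0.7). Within the dod genes 1 of 9 was higher (11.1%) and 3 were lower (33.3%). In contrast to dod-24, the gene dod-23 had 60.1 to 70.1 CPM at 400 mM and 39.6 to 47.9 CPM at 0 mM, a log2 fold change of 0.58 ± 0.08 (SE, edgeR adjusted p = 4.07e-05). Of the irg genes, irg-3 had 1.16 to 2.7 CPM at 400 mM and 3.01 to 5.17 CPM at 0 mM and a log2 fold change of -1.43 ± 0.22 (SE, edgeR adjusted p = 9.25e-05), against the rise of irg-2. Of 25 pals genes, which respond to viruses and microsporidia, 5 were called, each of them higher (20%), or 3 without replicate 1 at 400 mM or replicate 2 at 0 mM. The gene pals-23 had 10.7 to 17.7 CPM at 400 mM and 4.23 to 9.5 CPM at 0 mM, a log2 fold change of 1.25 ± 0.24 (SE, edgeR adjusted p = 0.00105). Among 17 epidermal antimicrobial peptide genes, 4 were higher (23.5%) and 2 were lower (11.8%), or 0 lower without replicate 4 at 0 mM. Their log2 fold changes ran from -3.61 to 2.15, with a median of -0.12. The peptide gene nlp-28 had 9.84 to 15.8 CPM at 400 mM and 3.5 to 7.41 CPM at 0 mM, a log2 fold change of 1.24 ± 0.23 (SE, edgeR adjusted p = 5.37e-04).

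Cathepsin genes were the digestive proteases called higher. The cathepsin B gene cpr-1 had 568, 524, 491, 614 and 617 CPM at 400 mM, against 182, 170.0, 193, 199 and 207 CPM at 0 mM. Its log2 fold change of 1.56 ± 0.09 (SE, edgeR adjusted p = 3.31e-11) had the third smallest p of all genes tested. The aspartyl protease gene asp-14 had 11.3, 7.16, 7.24, 9.25 and 8.53 CPM at 400 mM, against 38.3, 31.5, 29.7, 53.6 and 47 CPM at 0 mM, a log2 fold change of -2.21 ± 0.21 (SE, edgeR adjusted p = 7.79e-08). Of 21 protease genes, 5 were higher (23.8%, against 6.81% of all genes), each a cathepsin B or L gene. The 2 called lower (9.52%, against 5.94%) were asp-13, at a log2 fold change of -0.58 (edgeR adjusted p = 1.29e-04), and asp-14. With the block 8 were higher and 6 lower. Of 9 markers of the intestine as a whole, 3 were higher (33.3%) and 1 was lower (11.1%), with a summed level of 2400.1 to 2969 CPM at 400 mM and 1979 to 2745 CPM at 0 mM.

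Of 242 F-box genes, whose products bind substrates of SCF ubiquitin ligases, 48 were lower (19.8%, against 5.94% of all genes) and 19 higher (7.85%, against 6.81%), and their median log2 fold change was -0.27. With a minimum mean count of 10, which leaves fewer members to test, the number lower was 18. The calls differed in direction between the 3 name groups of the family, a split made after the values were seen. Of 95 fbxb genes, 35 were lower (36.8%) and 3 had a log2 fold change above 0, with a median of -1.29. Of 31 fbxc genes, 12 were lower (38.7%) and 1 was higher, or 3 higher with the block, with a median of -0.96. Of 116 fbxa genes, 18 were higher (15.5%) and 1 was lower, with a median of 0.35. These numbers lower were 26 to 35 in fbxb and 11 to 13 in fbxc with 1 library left out, and 13 and 5 with a minimum mean count of 10. The gene fbxc-51 had 2.14, 1.84, 2.29, 1.97 and 1.17 CPM at 400 mM, against 8.24, 9.36, 14.7, 8.27 and 10.7 CPM at 0 mM, a log2 fold change of -2.45 ± 0.24 (SE, edgeR adjusted p = 1.67e-07). Of 18 genes for the Skp1-related proteins that link F-box proteins to these ligases, a family picked after the values were seen, 9 were lower (50%) and 1 was higher (5.56%), or 2 higher with the block. The gene skr-10 had 5.32, 3.55, 4.9, 3.76 and 3.41 CPM at 400 mM, against 7.82, 6.68, 10.3, 9.41 and 9.5 CPM at 0 mM, a log2 fold change of -1.07 ± 0.17 (SE, edgeR adjusted p = 1.46e-04). The gene skr-7 had 13.9 to 17.4 CPM at 400 mM and 19.6 to 29.3 CPM at 0 mM, a log2 fold change of -0.67 ± 0.11 (SE, edgeR adjusted p = 1.11e-04). The widely expressed skr-1 and skr-2 had log2 fold changes of 0.0041 (edgeR adjusted p = 0.965) and 0.03 (edgeR adjusted p = 0.719). Neither skr-10 nor skr-7 had overlapping groups. Several skr genes are close copies of one another, which reads kept at a single alignment can miss.

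Of 8 markers of the early embryo, skr-10 among them, 4 were called, each of them lower (50%, against 5.94% of all genes), with a median log2 fold change of -1.01, while their summed level, most of it from nos-2, was 104 to 125 CPM at 400 mM and 112 to 132 CPM at 0 mM. The count of lower markers was 2 with the replicate block, 1 without replicate 3 at 0 mM, and 2 without replicate 4 or 5 of either group. The calls lost with the block, and with 8 and 6 of the 10 single libraries left out, were those of tbx-37, with 0.146 to 0.435 CPM at 400 mM and 0.267 to 0.899 CPM at 0 mM, and of end-1, with 0.0487 to 0.238 CPM at 400 mM and 0.134 to 0.85 CPM at 0 mM, at edgeR adjusted p of 0.0504 and 0.0627 in the block fit. The families that follow were picked after the values were seen. Of 33 sdz genes, first found by their dependence on the embryonic factor SKN-1, 12 were lower (36.4%) and 2 were higher (6.06%), or 6 or 7 lower without replicate 5 at 400 mM or replicate 3, 4 or 5 at 0 mM. The gene sdz-30 had 3.73, 4.7, 2.88, 3.52 and 2.44 CPM at 400 mM, against 9.15, 6.55, 10.7, 10.3 and 11.9 CPM at 0 mM, a log2 fold change of -1.50 ± 0.21 (SE, edgeR adjusted p = 1.75e-05). Of 10 pes genes, named for their patterned expression, 5 were lower (50%) and 2 were higher (20%), or 2 lower without replicate 3 at 0 mM. The gene noah-1, for a matrix protein of the embryonic epidermis that was also chosen after its values were seen, had 2.54, 1.57, 2.45, 2.63 and 1.9 CPM at 400 mM, against 5.24, 9.29, 12.8, 6.77 and 8.34 CPM at 0 mM, a log2 fold change of -1.94 ± 0.24 (SE, edgeR adjusted p = 5.57e-06). In sdz-30 and noah-1 no treated library reached the controls. The histone H1 gene his-24 had 13.6, 15, 9.58, 14.4 and 10.2 CPM at 400 mM, against 28, 33.1, 46.7, 30.4 and 32.7 CPM at 0 mM, a log2 fold change of -1.45 ± 0.21 (SE, edgeR adjusted p = 3.38e-05). Across 42 histone genes 3 were higher (7.14%, near the 6.81% of all genes) and 1 was lower (2.38%, against 5.94%), or 2 lower with the block. The nuclear receptor gene nhr-25, which acts in the epidermis and the embryo, had 0.358 to 1.03 CPM at 400 mM and 1.68 to 3.85 CPM at 0 mM, a log2 fold change of -1.97 ± 0.33 (SE, edgeR adjusted p = 2.44e-04). Of 5 epidermis markers, 2 were lower (40%, against 5.94% of all genes), wrt-10 and the GATA factor gene elt-1. The level of elt-1 was 5.25 to 7.84 CPM at 400 mM and 7.88 to 10.3 CPM at 0 mM, a log2 fold change of -0.49 ± 0.12 (SE, edgeR adjusted p = 0.00779). The summed level of the 5, most of it from the adult collagen gene col-19, was 970 to 1474 CPM at 400 mM and 846 to 1277 CPM at 0 mM. With the replicate block 1 of the 5 was higher as well. The part that the content of embryos or of epidermis may have in these falls was not tested.

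**Figure D4:**
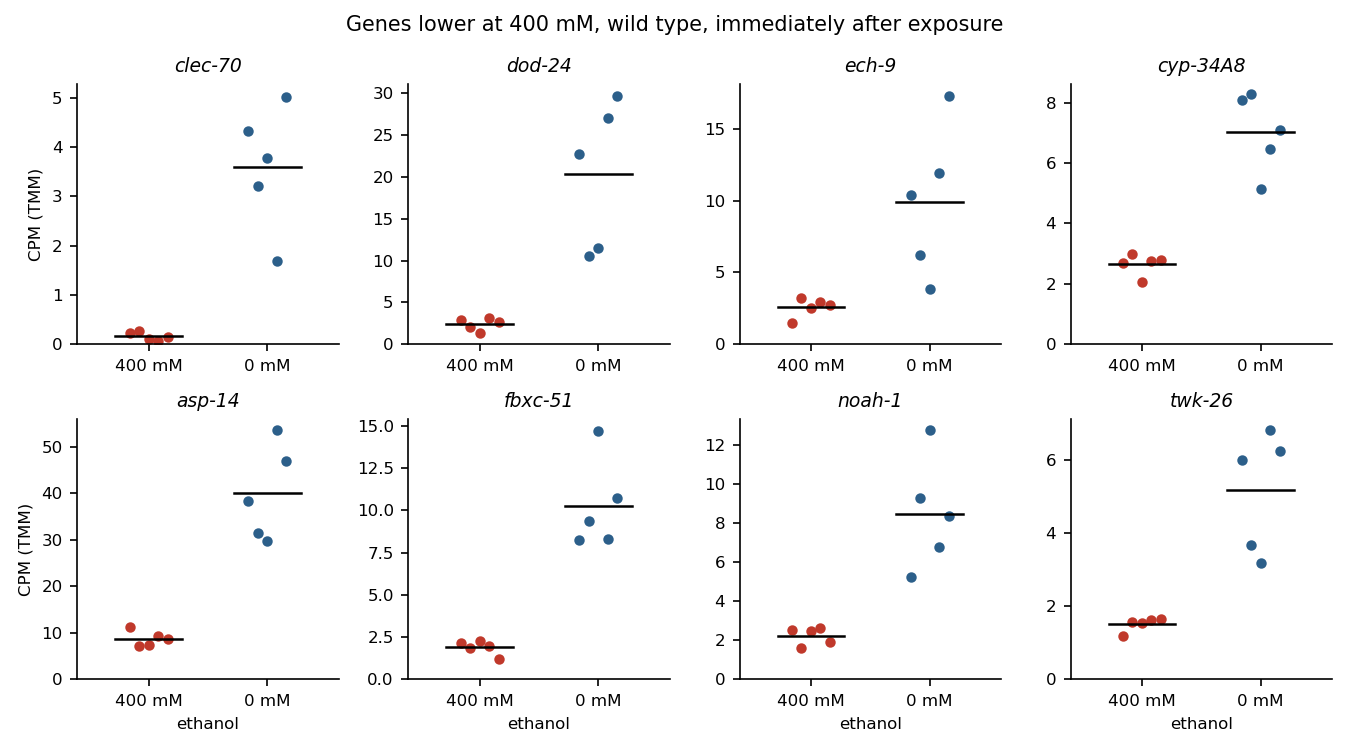
TMM-normalized CPM in each wild-type library of 8 genes that were lower at 400 mM (points; 400 mM left, 0 mM right; bars are means of 5 libraries; linear axes from 0). In each panel the libraries at 400 mM lie below those at 0 mM.

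Of 27 oocyte and germline RNA regulator genes, 0 were called with edgeR and 1 with DESeq2 or with the block, and 3 had an unadjusted p under 0.05. The oocyte gene oma-1 had 367 ± 27.9 CPM at 400 mM and 348 ± 24.4 CPM at 0 mM (SD, n = 5 each), a log2 fold change of 0.08 (edgeR adjusted p = 0.406). Of 28 major sperm protein genes, 0 were called by edgeR or by DESeq2 and 0 had an unadjusted p under 0.05. Of 48 DNA replication and cell cycle genes 1 was called (2.08%), or 6 lower with the block and 5 with a minimum mean count of 10. The call was that of cyd-1, for cyclin D, at 7.16 to 8.33 CPM at 400 mM and 10.5 to 16.3 CPM at 0 mM and a log2 fold change of -0.70 ± 0.11 (SE, edgeR adjusted p = 1.81e-04). Of the 6 yolk protein genes 1 was lower (16.7%, against 5.94% of all genes), or 3 with the block or without replicate 2 at 400 mM. The call was that of vit-3, with 3490.2, 5104, 4266, 2629 and 3006 CPM at 400 mM, against 5089, 6182, 5887, 5613 and 5081 CPM at 0 mM and a log2 fold change of -0.59 ± 0.12 (SE, edgeR adjusted p = 0.00215). Replicate 2 at 400 mM was level with the lowest controls and the other 4 were below them. The gene vit-1 had a log2 fold change of -0.41 (edgeR adjusted p = 0.0629), with an adjusted p of 0.000131 in the block fit, 0.00554 without replicate 2 at 400 mM and 0.0452 without replicate 5 at 0 mM. The gene vit-4 had -0.23 (edgeR adjusted p = 0.104), with 0.00968 in the block fit and 0.0177 without replicate 2 at 400 mM. The more abundant vit-2, vit-5 and vit-6 had log2 fold changes of -0.03 (edgeR adjusted p = 0.794), 0.01 (edgeR adjusted p = 0.942) and -0.08 (edgeR adjusted p = 0.454).

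Of 81 cytosolic ribosomal protein genes tested, 25 were called, each of them lower (30.9%, against 5.94% of all genes), and 56 were not. All 81 had a log2 fold change below 0, at -0.23 to -0.0093, with a median of -0.14. The median was -0.15 with the DESeq2 size factors. The count of calls was 51 with the block, 35 with DESeq2, 7 to 15 without replicate 1, 2 or 5 at 400 mM or replicate 2 or 3 at 0 mM, and 56 without replicate 4 at 400 mM. It was 16 with no filter and 10 on the 10 libraries alone. The gene rpl-4 had 2255, 2331, 2379.9, 2450.4 and 2431 CPM at 400 mM, against 2554, 2905, 2832, 2705 and 2723 CPM at 0 mM, a log2 fold change of -0.21 ± 0.04 (SE, edgeR adjusted p = 0.00174). The groups did not overlap. Of 31 translation factor genes, 7 were called, each of them lower (22.6%), and of 32 aminoacyl-tRNA synthetase genes 6 were lower (18.8%) and 1 was higher (3.12%). The translation factor count was 3 or 4 without replicate 1 or 2 at 400 mM or replicate 3 or 5 at 0 mM. On the 10 libraries alone 3 of these genes and 2 synthetase genes were lower. The initiation factor gene eif-3.J had 80.8 to 97.4 CPM at 400 mM and 109 to 124 CPM at 0 mM, a log2 fold change of -0.37 ± 0.05 (SE, edgeR adjusted p = 1.91e-05). Of 33 proteasome subunit genes 0 were called with edgeR and 1 with DESeq2 or with the block, and 2 had an unadjusted p under 0.05. Of 52 respiratory chain genes 2 were higher (3.85%) and 1 was lower (1.92%), or 3 lower with the block and 4 with DESeq2.

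Of 32 genes of synaptic vesicles and transmitters, 0 passed the test in edgeR and 1 in DESeq2, and 2 had an unadjusted p under 0.05. With the block 1 was higher and 1 was lower. The synaptobrevin gene snb-1 had 159 ± 7.92 CPM at 400 mM and 156 ± 9.11 CPM at 0 mM (SD, n = 5 each), a log2 fold change of 0.03 (edgeR adjusted p = 0.82), and the gene unc-13, for the priming factor of synaptic vesicles, 0.14 (edgeR adjusted p = 0.721). The BK potassium channel gene slo-1, a known target of ethanol in worm neurons, had 2.34 to 4.77 CPM at 400 mM and 2.78 to 3.72 CPM at 0 mM, a log2 fold change of 0.03 ± 0.22 (SE, edgeR adjusted p = 0.953). Of 67 potassium channel and BK partner genes, 1 was higher (1.49%) and 3 were lower (4.48%). The channel gene twk-26 had 1.19, 1.57, 1.52, 1.61 and 1.66 CPM at 400 mM, against 5.99, 3.68, 3.17, 6.83 and 6.26 CPM at 0 mM, a log2 fold change of -1.77 ± 0.23 (SE, edgeR adjusted p = 7.53e-06). The insulin-like peptide gene ins-34 had 0.159 to 1.02 CPM at 400 mM and 2 to 3.01 CPM at 0 mM, a log2 fold change of -1.88 ± 0.27 (SE, edgeR adjusted p = 3.37e-05), and overlaps nkcc-1. In both the groups stood apart. Of 8 neuron markers and 8 muscle markers 0 were called by edgeR or by DESeq2, while 1 neuron marker and 2 muscle markers had an unadjusted p under 0.05. With the block 1 marker of each was lower. Among 53 genes of muscle sarcomeres and attachment, 5 were lower (9.43%, against 5.94% of all genes) and 1 was higher (1.89%, against 6.81%). These counts were 12 and 3 with the block.

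Of 198 receptor genes, a family that is large in nematodes, 30 were higher (15.2%, against 6.81% of all genes) and 6 were lower (3.03%, against 5.94%), with a median log2 fold change of 0.26. The gene nhr-62, which acts in the response to scarce food, had 5.71, 6, 4.9, 5.49 and 4.43 CPM at 400 mM, against 2.33, 1.54, 2.19, 1.38 and 2.32 CPM at 0 mM, a log2 fold change of 1.45 ± 0.20 (SE, edgeR adjusted p = 1.48e-05). The gene nhr-19 had 4.68 to 8.47 CPM at 400 mM and 1.8 to 3.48 CPM at 0 mM, a log2 fold change of 1.35 ± 0.18 (SE, edgeR adjusted p = 1.35e-05), and shares exon positions with mrpl-53. The gene nhr-8, a receptor of sterol and drug responses, had 12.3 to 14.6 CPM at 400 mM and 5.81 to 9.99 CPM at 0 mM, a log2 fold change of 0.77 ± 0.23 (SE, edgeR adjusted p = 0.0276). The call of nhr-8 was lost, at 0.0519 to 0.0804, without replicate 3 or 5 at 400 mM or replicate 2 or 3 at 0 mM. The number of receptor genes lower was 3 without any of 5 single libraries, replicates 1 and 4 at 400 mM and 1, 2 and 5 at 0 mM. Of 12 SWI/SNF subunit genes, 1 was higher (8.33%, against 6.81% of all genes) and 2 were lower (16.7%, against 5.94%), or 7 lower with the block. Of these 3, ham-3 moved most, at a log2 fold change of -0.23 (edgeR adjusted p = 3.68e-04).

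**Figure D5:**
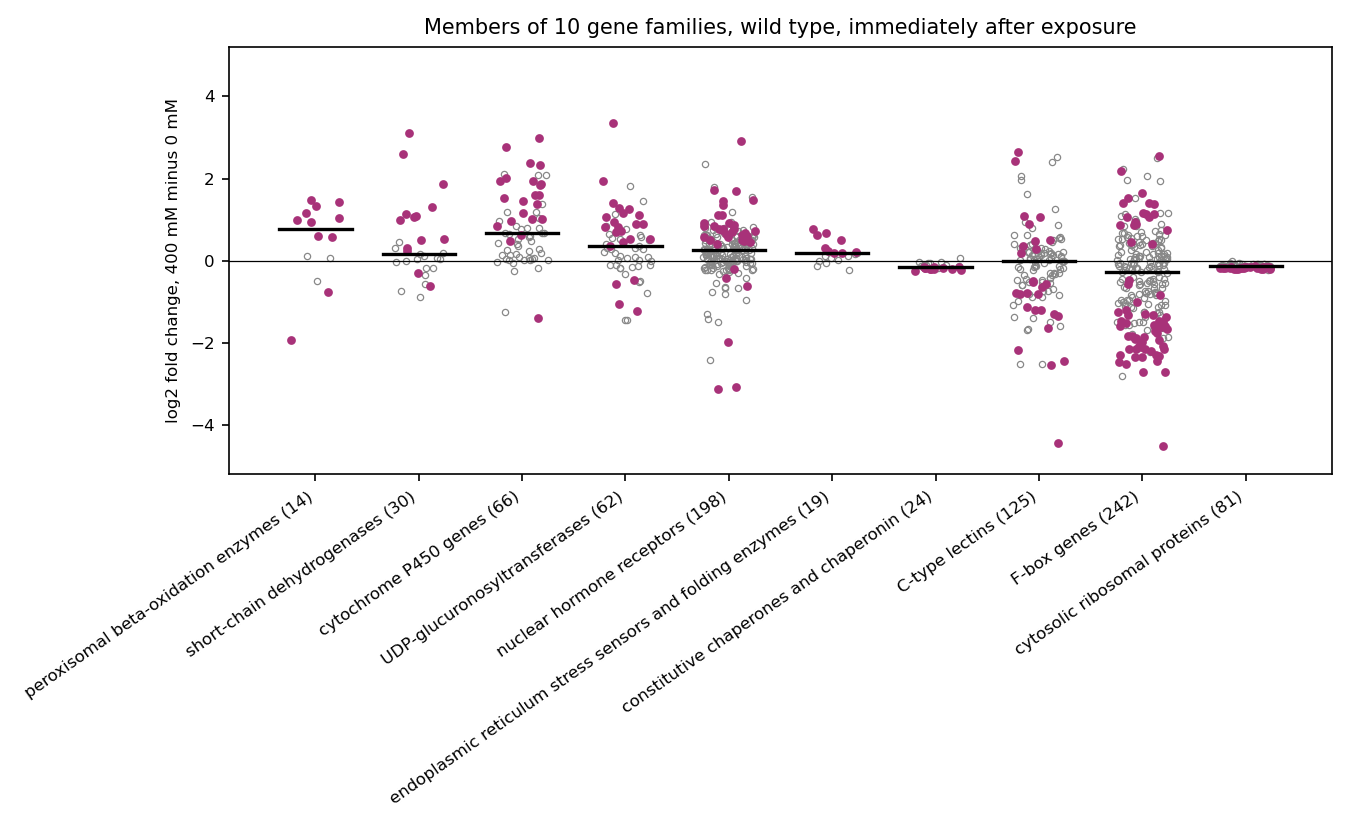
Log2 fold change (400 mM minus 0 mM, wild type) of each tested member of 10 families (points; filled where the edgeR adjusted p was under 0.05; black bars are medians; the number tested follows each name). Cytochrome P450 genes have a median of 0.67, F-box genes of -0.27 and cytosolic ribosomal proteins of -0.14, the last with all 81 points below 0.

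How far these effects were tied to the end of exposure was tested against worms 6 h off ethanol, which had controls of their own. At 6 h, ribosomal RNA genes took 17.95% of the counts of replicate 1 at 400 mM and 5.75% of those of replicate 1 at 0 mM. The interaction of ethanol with time passed the edgeR test for 856 of all genes (5.28%), 644 of them among the 2067 called genes, and for 1576 genes with the replicate block. It passed for 869 genes without the first of these 2 libraries and for 728 without the second. It passed for 10 of the 11 called peroxisomal beta-oxidation genes, whose list had a median log2 fold change of 0.78 immediately and -0.06 at 6 h. In acox-3 the log2 fold change was 1.42 immediately and -0.35 at 6 h, an edgeR adjusted p of 7.16e-07 for the difference. In icl-1 it was 1.83 immediately and -0.02 at 6 h, with an adjusted p of 7.28e-06, and in dhs-2 3.10 immediately and 0.21 at 6 h, with 4.24e-07. Some genes kept similar estimates. In lipl-5 they were 1.25 immediately and 1.14 at 6 h, an edgeR adjusted p of 0.871 for the difference. In clec-190 they were 2.42 immediately and 2.09 at 6 h, at 0.603, and in fat-2 0.74 immediately and 0.49 at 6 h, at 0.26. Such a p does not show that they were equal. The genes were picked by their values immediately after exposure, which favors smaller estimates at 6 h.

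The response was also set beside that of swsn-9 mutants collected at the same time. The interaction of ethanol with genotype passed for 703 of 16934 genes (4.15%), 338 of them called in wild type. This count was 1171 with the replicate block, 1179 without replicate 3 of the mutants at 400 mM and 1372 without their replicate 5 at 0 mM. Some fuel genes rose more in mutants. In acs-2 the log2 fold change was 1.91 in wild type and 4.48 in mutants, an edgeR adjusted p of 4.12e-07 for the difference. In adh-1 it was 2.56 in wild type and 5.07 in mutants, with 3.98e-05. Folding genes of the endoplasmic reticulum rose more in wild type. In enpl-1 it was 0.51 in wild type and -0.04 in mutants, with an edgeR adjusted p of 1.96e-05, and 8 of the 9 called folding genes of the endoplasmic reticulum passed this test. In ugt-16 it was 1.95 in wild type and 0.18 in mutants, with 2.76e-05, and in clec-266 -2.18 in wild type and -0.11 in mutants, with 1.94e-05.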

How the data were processed

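Poly(A)-selected RNA of whole worms was sequenced in 6 groups of 5 libraries, and groups were taken from the sample labels. The deposited values are raw counts per gene from the authors' STAR 2.6.0a alignment, which kept reads with a single alignment, and whether the counts are stranded is not given in the sources used here. Of the 46739 gene identifiers, 46484 were found in the WBcel235 annotation, from which symbols and positions were taken, and all columns of the table were used.

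The test was the quasi-likelihood F test of edgeR 4.0.16 in R 4.3.3 with TMM normalization on the 20 wild-type libraries, without a block, for genes with a mean count of at least 1. The same 20 libraries gave the interaction with time, and all 30 libraries the interaction with genotype. Adjustment was by Benjamini-Hochberg at 0.05. Standard errors of the log2 fold change were derived as its size divided by the square root of the F statistic. Intervals of summed counts are exact binomial ones at 95%. No pair of libraries of a group agreed within sampling noise (chi-square of at least 5.07 per gene). The procedure was tested on simulated counts.

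Per the study's methods, replicates were collected on different days with ethanol and control plates side by side, and the replicate number was taken to mark these pairs. Deviations from the group means correlated at 0.03, 0.20, 0.35, 0.05 and 0.07 across genes between the libraries of replicates 1 to 5. The block is therefore given beside a result where it changes a call or moves a count by over 1.5 times.

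Members and lists were chosen with earlier results of these data known. Named genes were first the 10 largest rises and falls. These were called genes with a mean of at least 1 CPM in the higher group and no overlap. Each list gave up to 2 genes per direction with the smallest p among called genes without overlap, and not all of these are described. Key genes marked in the lists were added, and later picks are named as such. In genes picked for it, the lack of overlap follows from the rule and adds no support. Lists are described by counts and medians. Alternatives were the block, DESeq2 1.42.0 with its own size factors, those factors in edgeR, a minimum mean count of 10, no filter, fits on 10 or 30 libraries, and each library left out. Promoter motifs were not analysed here.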

Additional observations from a re-analysis of the deposited data

Results flagged for a closer look

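Of 284 groups of 5 libraries checked by Dixon's test, 13 had a library set apart from the other 4, and chance alone sets apart about 1 in 20. At 400 mM, replicate 2 had 39.3 CPM of gpdh-1, against a group median of 12.8 CPM, and 92.5 CPM of nhr-49, below a median of 99.9 CPM. Replicate 3 at 400 mM had 1.03 CPM of hsp-70, above a median of 0.146 CPM, and 24.6 CPM of sbp-1, below a median of 30.2 CPM. Replicate 2 at 400 mM also had 766 CPM of sip-1, below a median of 957 CPM. Replicate 1 at 400 mM had 1.19 CPM of twk-26, below a median of 1.57 CPM. At 0 mM, replicate 1 had 0.333 CPM of F14F9.3 and 100.4 CPM of alh-4, against medians of 0.0599 and 109 CPM, and replicate 3 had 46.7 CPM of his-24, above a median of 32.7 CPM. Replicate 3 at 0 mM also had 8.83 CPM of elo-9, against a median of 6.99 CPM. Replicate 4 at 0 mM had the single count of sodh-2, 0.0599 CPM where the other 4 had 0, and 0 CPM of mtl-1, whose median was 0.0755 CPM. Replicate 5 at 0 mM had 6.43% of its counts on ribosomal RNA genes, against a median of 0.715%.

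The ethanol effect immediately after exposure differed from that at 6 h in 82 of the 140 genes named in the text, by the interaction term of edgeR (adjusted p between 4.24e-07 and 0.0491). Values here are the log2 fold change immediately minus that at 6 h, so that a positive value means a higher one immediately. Most of these genes were picked by their values immediately after exposure, so the choice favored a difference of the same sign. Among the genes with the largest rises it was 5.62 in fmo-2, 3.58 in argk-1, 3.94 in gst-29, 4.77 in mtl-1, 3.00 in irg-2, 3.04 in E02C12.6, 4.40 in T16G1.5 and 6.82 in sodh-2. Of the largest rises, R05H10.1 and F14F9.3 did not pass this test. Among those with the largest falls it was -2.39 in dod-24, -4.05 in sym-1, -4.0 in wrt-10, -3.29 in dpy-14, -2.61 in nhr-74, -4.74 in C32H11.4, -3.31 in F55G11.2, -4.01 in C09F9.2 and -4.06 in sysm-1. In alcohol and aldehyde oxidation it was 2.49 in adh-1, 0.59 in alh-4, 0.95 in alh-5 and -1.05 in alh-12. The genes of peroxisomes split as they did in the main comparison, with 1.77 in acox-3, 1.07 in dhs-28, 1.28 in daf-22, 1.36 in prx-11 and 0.75 in ctl-3 on one side and -2.12 in ech-9, -1.07 in acox-1.2 and -1.39 in pmp-5 on the other. In mitochondrial oxidation, fatty acid synthesis and fat release it was 1.57 in acs-2, 0.47 in cpt-2, -1.33 in hacd-1, -0.42 in fasn-1 and 0.87 in lbp-7. The sugar genes had 1.85 in icl-1, 0.37 in pck-2, 0.21 in enol-1 and 0.30 in gpi-1, and the propionate shunt genes -1.14 in acdh-1, -0.61 in ech-6 and -0.59 in hphd-1. All sugar genes named here were positive and all shunt genes negative. In sulfur and choline metabolism it was 2.09 in cth-1, 1.47 in ckb-4 and -0.80 in sams-1. In detoxification it was 2.36 in cyp-35C1, 1.04 in cyp-37A1, -1.57 in cyp-34A8, 2.40 in ugt-37, 2.17 in ugt-16, 2.89 in dhs-2, 1.51 in gst-5, 2.29 in pgp-1, 1.73 in pgp-5, 0.74 in cest-25 and 1.08 in cest-27, where cyp-34A8 alone was negative. In stress and folding genes it was 2.02 in hmit-1.1, 0.66 in gpdh-2, 0.68 in cdr-6, -0.65 in rhy-1, 0.62 in xbp-1, 0.32 in enpl-1 and -0.87 in hsp-43. In defense and digestion it was -2.62 in clec-266, 0.83 in spp-8, 1.02 in zip-2, -1.12 in irg-3, 1.21 in nlp-28, 0.67 in cpr-1, -1.63 in asp-14 and -1.08 in asp-13. The ligase, embryonic, epidermal and cell cycle genes listed here were all called lower immediately after exposure. Their values were -2.65 in fbxc-51, -0.93 in skr-10, -1.28 in sdz-30, -2.16 in noah-1, -1.82 in his-24, -2.13 in nhr-25, -0.63 in cyd-1 and -0.57 in elt-1. Of neuronal and regulatory genes, the values were -2.03 in twk-26, -1.74 in ins-34, 1.24 in nhr-62 and 1.58 in nhr-19.

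The effect differed between wild type and swsn-9 mutants in 45 of the same genes, again by edgeR's interaction term (adjusted p between 4.12e-07 and 0.0495), given as wild type minus mutants. Fuel and fatty acid genes with a lower log2 fold change in wild type were led by acs-2 and adh-1, at -2.58 in acs-2, -2.52 in adh-1, -1.66 in hacd-1, -1.15 in alh-5, -0.93 in alh-12, -0.32 in acs-19, -0.35 in pod-2, -0.21 in mdt-15 and -0.51 in alh-1. Desaturase and peroxisome genes included positive values, 1.92 in fat-5, 1.40 in fat-7, 0.53 in acox-3 and 0.39 in dhs-28, and negative ones, -2.22 in ech-9 and -0.51 in pmp-5. In other metabolic genes it was 0.29 in cpt-2, 0.77 in icl-1, 0.25 in enol-1, 0.58 in hphd-1 and 0.87 in cysl-2, all positive. In detoxification and osmotic genes it was -0.40 in cyp-37A1, 1.76 in ugt-16, 1.04 in pgp-5, 0.82 in cest-25 and -0.87 in hmit-1.1. The folding genes of the endoplasmic reticulum had 0.44 in xbp-1, 0.54 in enpl-1 and 0.49 in hsp-4, all higher in wild type, and it was 0.61 in hsp-43. Of the genes with the largest rises, it was 3.35 in irg-2 and 2.64 in T16G1.5. In defense and digestion genes it was -3.20 in clec-70, -2.10 in clec-266, 1.41 in clec-190, -0.49 in spp-8 and -0.95 in asp-13. Genes that fell in wild type and had lower values there than in mutants were at -2.08 in sym-1, -2.56 in wrt-10, -2.70 in C09F9.2, -1.84 in fbxc-51, -1.03 in noah-1, -1.22 in his-24 and -1.42 in twk-26. The yolk genes were at 0.83 in vit-3 and 0.74 in vit-4.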

How the results depend on the processing

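Of the 115 called genes among the 140 named in the text, 108 were called in every alternative that tested them. No named gene changed sign while called. With a minimum mean count of 10 only 134 of the 140 were tested. The 7 called genes that lost their call in some setting were acox-1.2, elo-9, hsp-4, hsp-43, tbx-37, end-1 and nhr-8. With the replicate block 1516 genes were higher and 1416 lower, against 1104 and 963 without it, and it changed no other call of a named gene than those given above (alh-1, fat-6, fat-7, fasn-1, sams-1, vit-1, vit-4, tbx-37 and end-1). DESeq2 called 1093 higher and 1160 lower, and its size factors in edgeR 1042 and 1056, so that the share of calls that were higher was 53.4% with TMM, 48.5% with DESeq2 and 49.7% with those factors. With a minimum mean count of 10 there were 1096 higher and 1119 lower of 11745 genes, without a filter 979 and 845, on the 10 libraries alone 879 and 722, on these with the replicate block 1313 and 1117, and on all 30 libraries 1247 and 1185. Leaving out 1 library gave 865 to 1180 higher and 760 to 1013 lower. The interaction with time was called for 856 genes, for 1576 with the replicate block, and for 682 to 1065 with a library left out. The interaction with genotype was called for 703 genes, for 1171 with the replicate block, and for 585 to 1372 with a library left out, 1179 without replicate 3 of the mutants at 400 mM and 1372 without their replicate 5 at 0 mM. The cause of these moves was not tested. Genes near 1 CPM hold about 10 to 20 counts a library, so that small changes in them were not detectable at this depth. Reads of overlapping genes and close copies cannot be told apart. The planned description of promoter motifs was not run.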

Other observations

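A family of small proteins fell and a family of esterases rose in part, and both were picked after their values were seen. Of 6 pud genes, which encode small proteins of unknown function, 5 were called, each of them lower (83.3%, against 5.94% of all genes). Their list had a median log2 fold change of -2.51, and in 2 of the 6 the groups did not overlap. The gene pud-3 had 0, 0.0682, 0.218, 0.0597 and 0.0975 CPM at 400 mM, against 0, 2.41, 3.09, 1.74 and 0.927 CPM at 0 mM, a log2 fold change of -4.01 ± 0.90 (SE, edgeR adjusted p = 0.00387), and its groups overlapped at replicate 1, where both libraries had no count. The pud genes include close copies, so that reads could be lost or shared among them. Of 31 carboxylesterase genes of the cest family, whose products cleave ester bonds, 9 were higher (29%, against 6.81% of all genes) and 1 was lower (3.23%, against 5.94%), or 2 lower with the replicate block. The gene cest-25 had 105, 92.2, 81.3, 115 and 111 CPM at 400 mM, against 50.6, 49.1, 47.1, 57 and 52.3 CPM at 0 mM, a log2 fold change of 0.98 ± 0.08 (SE, edgeR adjusted p = 2.25e-08), and shares exon positions with Y71H2AM.12. The gene cest-27 had 8.6 to 13.4 CPM at 400 mM and 3.33 to 4.94 CPM at 0 mM, a log2 fold change of 1.46 ± 0.15 (SE, edgeR adjusted p = 2.08e-07). In both cest genes the groups did not overlap. The number of cest genes higher was 5 without replicate 1 at 0 mM.

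Among lists of the design not described above, 38 genes of metal binding and transport had 4 higher (10.5%) and 3 lower (7.89%), or 10 and 7 with the replicate block. Without replicate 5 at 0 mM 7 were higher, and without replicate 2 at 0 mM 1 was lower. The gene cdr-6, of a family first found through its response to cadmium, had 41.5, 40.6, 39.3, 42.6 and 45.9 CPM at 400 mM, against 27, 26.7, 25, 27.8 and 25 CPM at 0 mM, a log2 fold change of 0.68 ± 0.06 (SE, edgeR adjusted p = 6.34e-08). The metallothionein gene mtl-2 had 41.1 to 70.8 CPM at 400 mM and 14.8 to 38.8 CPM at 0 mM, a log2 fold change of 0.97 ± 0.22 (SE, edgeR adjusted p = 0.00473). Neither gene had overlapping groups. Among 13 lysozyme genes, 1 was higher (7.69%, near the 6.81% of all genes) and 2 were lower (15.4%, against 5.94%), or 3 and 3 with the replicate block. The gene called higher was ilys-2, with a log2 fold change of 2.73 ± 0.42 (SE, edgeR adjusted p = 7.11e-05). One of the 2 called lower was ilys-5, with -0.42 ± 0.09 (SE, edgeR adjusted p = 0.00241). By chromosome, 15.3% of the 3183 genes tested on chromosome V were called, 325 higher and 162 lower, while the other nuclear chromosomes had 11.1% to 13.2% called. This difference was not tested.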
